A study of Mus musculus with 9 samples.

Results

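The genes described are 9 cytokines and receptor chains of the IL-17, IL-12 and IL-23 axis, taken by symbol from a table of 20926 genes: the ligand genes Il17a, Il23a, Il12a and Il12b, and the receptor genes Il17ra, Il17rc, Il23r, Il12rb1 and Il12rb2. Their RNA was measured in blood of male DBA/1 mice, labelled 7 weeks old, in 3 groups with 3 libraries each. In the study 7 weeks is the age at which the mice were divided into groups. Immunization and irradiation came after that, so the blood was taken at a later age, which is not stated. The Ctrl mice were not irradiated and had no arthritis. CIA stands for collagen-induced arthritis, a model of rheumatoid arthritis raised in these mice by injecting chick type II collagen, at the start with complete and at the booster with incomplete Freund's adjuvant, and the CIA mice were not irradiated. In CIA+THz, mice made arthritic in that way received 0.1 THz radiation on their swollen ankles for 30 min per day over 14 days under isoflurane. Whether the other mice were given isoflurane is not given in the sources used here, so irradiation and anesthesia cannot be told apart.

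IL-12 is a pair of the Il12a and Il12b chains, and IL-23 is a pair of the Il23a chain with the same Il12b chain. Both are released mainly by activated myeloid cells. The IL-12 receptor joins Il12rb1 to Il12rb2, which is carried by NK cells and T helper 1 (Th1) cells and drives interferon gamma, while the IL-23 receptor joins Il12rb1 to Il23r, which is carried by T helper 17 (Th17) cells, gamma-delta T cells and some other innate lymphocytes. Those cells release IL-17A, which is sensed by a complex of Il17ra and Il17rc, mostly on stromal and epithelial cells. The axis is known for driving joint inflammation in arthritis models.

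In these libraries Il17ra, Il12rb1, Il12rb2 and Il12a were above 0 throughout and Il23r in 7 of the 9, while Il17rc and the ligand genes Il17a, Il23a and Il12b were at or near 0. The chain particular to the IL-12 receptor, Il12rb2, was lower in CIA than in Ctrl, and the chain particular to the IL-23 receptor, Il23r, was higher, both at the unadjusted criterion only. Their shared partner Il12rb1, the IL-12 chain Il12a and the IL-17 receptor chains Il17ra and Il17rc did not pass that criterion in any comparison.

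The values were deposited as FPKM, fragments scaled by transcript length and library total. Each library was divided by a scaling factor between 0.847 and 1.24, and all levels below are this rescaled FPKM. The number of reads is not given. The smallest values of the libraries put their relative depth, with Ctrl 1 at 1, at up to 1.10 in Ctrl, up to 1.28 in CIA and between 1.35 and 1.87 in CIA+THz, so that genes near 0 were measured with less error in CIA+THz. The libraries are labelled blood leukocyte, but the protocol names total blood RNA, and Alas2, the heme synthesis enzyme of red cell precursors, lay between 47174 and 102970 rescaled FPKM. Genes of T cells, NK cells, monocytes and B cells were present in all libraries. In such bulk RNA, fewer cells of a type and less RNA per cell cannot be told apart.

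By mean level per transcript length, the order of the members was Il17ra, Il12rb1, Il12rb2, Il23r, Il12a, Il17rc, Il12b, Il23a and Il17a. Il17ra stood apart, with a mean of 116 rescaled FPKM over the 9 libraries, above 95.6% of the genes tested. The next 4 members had means of 2.07, 1.30, 0.951 and 0.945, and the lowest and highest libraries of each neighbouring pair overlapped. Il17rc, with a mean of 0.162, also overlapped Il12a in its highest library. In the plot of the 9 members by library this order appears as the change of axis scale between panels.

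**Figure D1:**
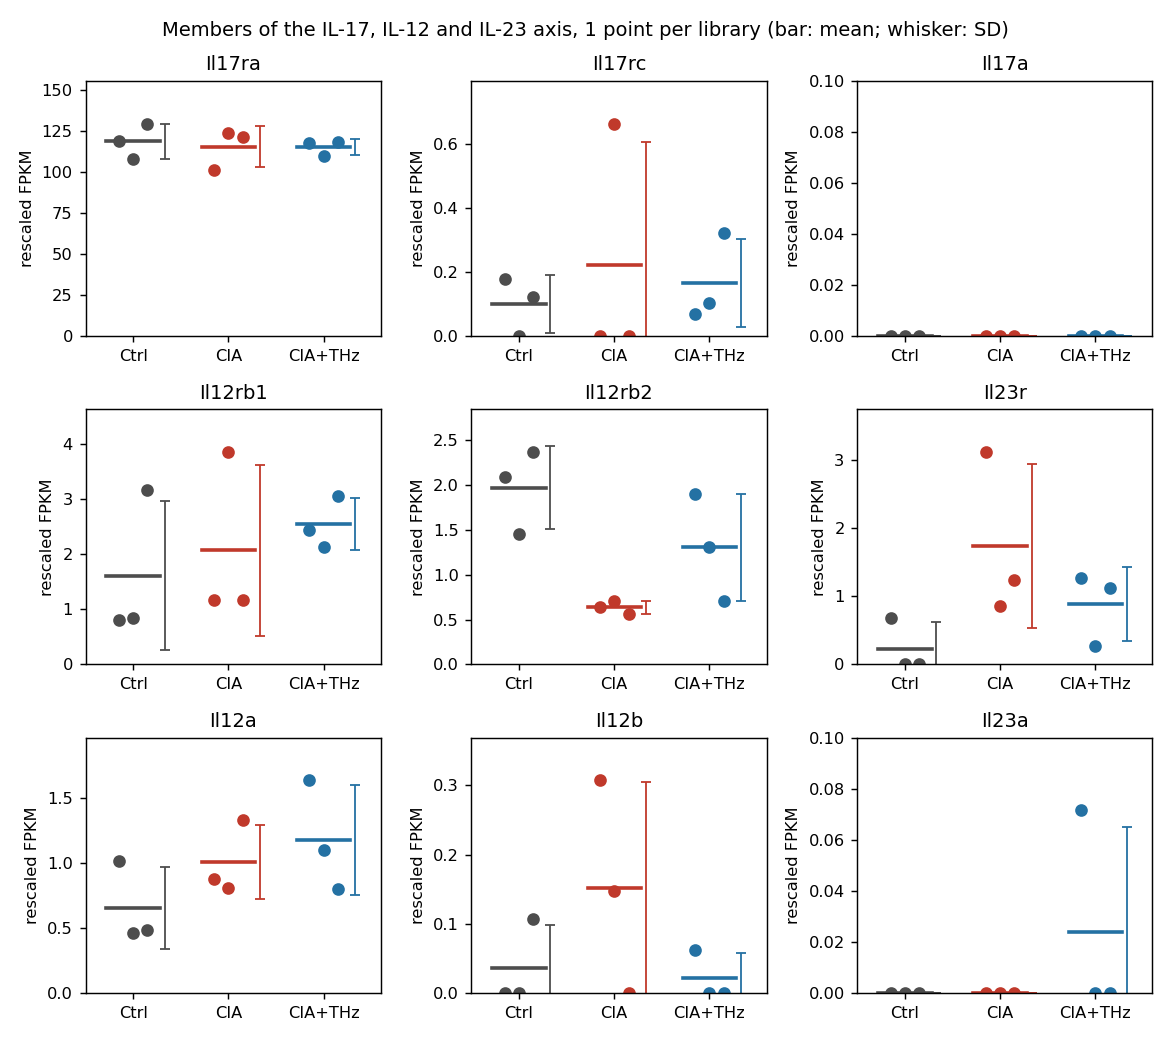
Rescaled FPKM of each member on a linear axis that starts at 0 and has its own scale in each panel, with 1 point per library, a bar at the group mean and a whisker of 1 SD, for Ctrl, CIA and CIA+THz. The 3 CIA points of Il12rb2, between 0.562 and 0.702, lie under all others, the Il23r points of CIA lie above those of Ctrl, and Il17a is at 0 throughout.

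Il12rb2 and Il23r are neighbours on chromosome 6. On GRCm38 (mm10), Il12rb2 spans chr6:67291318-67376188 and Il23r spans chr6:67422932-67491855, both on the minus strand. The gap between them is 46743 bases long and holds 4 annotated pseudogenes and 0 protein-coding genes. Because these neighbours differed in opposite directions between Ctrl and CIA, the 250 bases before the start of each are shown, from RefSeq on GRCm38.p6, read 5′ to 3′ on the minus strand, at chr6:67376189-67376438 for Il12rb2 and at chr6:67491856-67492105 for Il23r. Capitals mark matches to the STAT motif TTCNNNGAA and the T-box motif TCACAC.
Il12rb2: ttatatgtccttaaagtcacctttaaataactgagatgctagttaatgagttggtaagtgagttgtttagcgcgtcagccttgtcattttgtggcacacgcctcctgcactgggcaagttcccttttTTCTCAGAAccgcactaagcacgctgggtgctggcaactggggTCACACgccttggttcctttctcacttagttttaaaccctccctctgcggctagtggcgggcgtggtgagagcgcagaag
Il23r: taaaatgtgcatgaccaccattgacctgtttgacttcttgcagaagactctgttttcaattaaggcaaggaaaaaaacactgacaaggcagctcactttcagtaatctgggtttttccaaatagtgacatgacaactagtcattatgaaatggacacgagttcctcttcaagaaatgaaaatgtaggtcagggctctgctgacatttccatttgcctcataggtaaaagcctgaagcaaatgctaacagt

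The Il12rb2 window has a GC content of 50.0% and the Il23r window of 39.6%, against a median of 52.4% over 32851 windows of the same length. In the Il12rb2 window the STAT letters begin at position -123 and the T-box letters at -80, counted from the gene's start. STAT letters were found on either strand in 7.02% of all windows and T-box letters in 12.3%. The AP-1 letters TGANTCA (6.75% of all windows), the Runx letters TGTGGT (14.0%), both searched on either strand, and the TATA letters TATAAA (7.59%), searched on the gene's strand, were in neither window. No letters searched were found in the Il23r window. Of the other members with a window, Il17a held TATA letters at -31, Runx letters at -52 and AP-1 letters at -244, Il12a held T-box letters at -138 of its upstream start and Runx letters at -126 of its downstream start, and Il12b and Il17rc held none of these. These are matches of letters and say nothing of binding.

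The lowest members were 3 of the 4 ligand genes. Il17a (chr1:20730905-20734496), which encodes the IL-17A cytokine, was listed at 0 in all 9 libraries. Il23a (chr10:128296139-128298752), the chain particular to IL-23, was above 0 in CIA+THz 1 only, at 0.0716, which is also the deepest library. Il12b (chr11:44400063-44414033), the chain that IL-12 and IL-23 share, was at 0.107 in Ctrl 3, 0.307 in CIA 1, 0.147 in CIA 2 and 0.0626 in CIA+THz 1, and was listed at 0 in the other 5 libraries. These 3 genes had means under the 0.1 that testing required, so that no fold change is given. A value of 0 here shows that the RNA was not detectable at this depth in blood, not that it was absent.

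Il12a (chr3:68690644-68698547), the chain particular to IL-12 that also occurs in IL-35, was above 0 in every library. It was at 1.02, 0.458 and 0.487 in Ctrl 1 to 3, at 0.879, 0.808 and 1.33 in CIA 1 to 3, and at 1.63, 1.10 and 0.797 in CIA+THz 1 to 3. Ctrl 2 and Ctrl 3 were the lowest of the 9, but Ctrl 1 lay among the arthritic ones and all groups overlapped. The log2 difference of CIA from Ctrl was 0.60 (95% CI -0.46 to 1.66) and that of CIA+THz from CIA was 0.18 (95% CI -0.69 to 1.06). Il12a thus exceeded Il12b in each of the 4 libraries where both were measured, by 2.86 to 26.1 times.

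Among the receptors, Il12rb2, the chain that gives the IL-12 receptor its signal through STAT4, showed the difference with the smallest p of the members in CIA against Ctrl. It was at 2.08, 1.46 and 2.36 in Ctrl 1 to 3, at 0.638, 0.702 and 0.562 in CIA 1 to 3, and at 1.90, 1.30 and 0.711 in CIA+THz 1 to 3. The CIA libraries were the lowest 3 of the 9 and varied little among themselves (0.634 ± 0.0701, SD, n = 3). These are low values, and the mean of Il12rb2 over the 9 libraries was above only 24.8% of the genes tested. After allowing for depth, CIA 2 and CIA 3 were 1.14 and 1.18 times the smallest value, that of CIA 1. The number of reads behind that smallest value is not known. CIA did not overlap Ctrl (1.97 ± 0.465, n = 3), while CIA+THz (1.30 ± 0.592, n = 3) reached from just above CIA 2 into the range of Ctrl.

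For Il12rb2, CIA differed from Ctrl by -1.47 on the log2 scale (SE 0.36, 95% CI -2.31 to -0.64), with an unadjusted p of 0.00409 and an adjusted p of 0.119 in limma. The criterion for a differentially expressed gene was that of the study: the unadjusted p lies under 0.05 and the log2 fold change is past 0.67 in either direction. Il12rb2 kept it when each of the 6 libraries was left out in turn, between -1.67 and -1.33. With a pseudocount of 1 in place of 0.1, the fold change was -0.85.

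Il23r, the chain that gives the IL-23 receptor its signal through STAT3, differed the other way. It was at 0.687 in Ctrl 1 and listed at 0 in Ctrl 2 and Ctrl 3, at 3.12, 0.857 and 1.24 in CIA 1 to 3, and at 1.27, 0.264 and 1.13 in CIA+THz 1 to 3. CIA 1 was far above the other libraries, and all CIA libraries exceeded all Ctrl libraries, the smallest gap being that between CIA 2 and Ctrl 1. CIA+THz overlapped both groups, with CIA+THz 2 under Ctrl 1.

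For Il23r in CIA against Ctrl, the log2 fold change was 3.01 (SE 0.93, 95% CI 0.83 to 5.19), with an unadjusted p of 0.0135 and an adjusted p of 0.185 in limma. Its size depends on the pseudocount, since 2 Ctrl libraries were at 0, and was 1.11 with a pseudocount of 1. The criterion was lost without Ctrl 2 (2.51), without Ctrl 3 (2.51) or without CIA 1 (2.51). After allowing for depth, the Il23r values above 0 ranged from 1 to 6.97 times the smallest, found in CIA+THz 2, and the number of reads behind that smallest value is not known.

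Il12rb1 (chr8:70808449-70821424), the chain that both receptors share, split within groups rather than between them. It was at 0.811, 0.843 and 3.17 in Ctrl 1 to 3, at 1.18, 3.86 and 1.18 in CIA 1 to 3, and at 2.43, 2.14 and 3.07 in CIA+THz 1 to 3. Ctrl 3 and CIA 2 were well above the other libraries of their groups, while the CIA+THz libraries lay together. The log2 difference was 0.40 (95% CI -1.18 to 1.98) for CIA against Ctrl and 0.49 (95% CI -0.65 to 1.63) for CIA+THz against CIA. The latter passed the criterion without CIA 2 (1.03), and the difference of CIA+THz from Ctrl, 0.89 (95% CI -0.32 to 2.11), passed it without Ctrl 3 (1.50).

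The ratios of the receptor chains are built from the values above and are not separate results. Il12rb1 was 0.389, 0.579 and 1.34 times the level of Il12rb2 in Ctrl 1 to 3, 1.85, 5.49 and 2.10 times in CIA 1 to 3, and 1.28, 1.64 and 4.31 times in CIA+THz 1 to 3. All CIA ratios were above all Ctrl ratios, and CIA+THz overlapped both. For single genes, CIA and Ctrl did not overlap in 23.5% of all genes, and no such share was computed for ratios. Within Ctrl and within CIA, the highest ratio was in the library with the highest Il12rb1, Ctrl 3 and CIA 2. Il12rb2 exceeded Il23r 3.03 times in Ctrl 1, the Ctrl library in which Il23r was above 0, and was 0.205, 0.819 and 0.453 times Il23r in CIA 1 to 3. In CIA+THz 1 to 3 the ratio was 1.49, 4.93 and 0.632. These ratios of rescaled FPKM were not tested.

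Il17ra (chr6:120463247-120487559), the signalling chain that most IL-17 family receptors share, was the steadiest member. It was at 119, 108 and 130 in Ctrl 1 to 3, at 101, 124 and 121 in CIA 1 to 3, and at 118, 110 and 118 in CIA+THz 1 to 3. The groups overlapped throughout. The log2 difference of CIA from Ctrl was -0.04 (95% CI -0.34 to 0.26) and that of CIA+THz from CIA was 0.0018 (95% CI -0.25 to 0.25), intervals that hold no change as large as the 0.67 of the criterion.

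Il17rc (chr6:113471427-113483140), the partner that binds IL-17A and IL-17F together with Il17ra, was near 0. It was at 0.177, 0 and 0.122 in Ctrl 1 to 3, at 0, 0.666 and 0 in CIA 1 to 3, and at 0.0692, 0.102 and 0.323 in CIA+THz 1 to 3. CIA 2 alone held the CIA mean up. The log2 difference of CIA from Ctrl was 0.11 (95% CI -2.13 to 2.34), so that changes of either direction well past the criterion lie within the interval. In the 6 libraries where Il17rc was above 0, Il17ra was 186 to 1697 times higher.

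Over the Ctrl, CIA and CIA+THz groups together, 6 of the 9 members had the mean of at least 0.1 needed for the test. In limma's F-test, the unadjusted p was 0.0123 for Il12rb2 and 0.0149 for Il23r. A p under 0.05 was thus found for 2 of 6 members and for 21.3% of the 12366 genes tested. Adjusted in limma, it was 0.131 and 0.141, and 2.53% of all genes had an adjusted p under 0.05. The unadjusted p of Il23r was 0.0688 without Ctrl 2 and 0.0758 without Ctrl 3, and 0.147 in an analysis of variance on linear values. The p of the other 4 lay between 0.220 for Il12a and 0.922 for Il17ra.

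In CIA against Ctrl, 2 of the 6 members tested passed the criterion, 1 in each direction, against 9.04% of all genes (4.79% higher and 4.25% lower). The groups did not overlap for these 2 genes, against 23.5% of all genes (11.8% in each direction). The median log2 difference of the 6 members was 0.25, beside -0.01 over all genes tested. None had an adjusted p under 0.05 in limma, which 0.154% of all genes had.

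In CIA+THz against CIA, 0 of the 6 members passed the criterion, which 4.54% of all genes did (2.94% higher and 1.6% lower). By unadjusted p under 0.05 alone the count was also 0, against 13.2% of all genes, and no gene of the 12366 had an adjusted p under 0.05 in limma. Il12rb2 was 0.84 higher on the log2 scale (SE 0.40, 95% CI -0.11 to 1.80, unadjusted p = 0.0753, adjusted p = 0.422 in limma). Its groups did not overlap, which held for 19.6% of all genes (9.38% higher and 10.2% lower), though CIA 2 and CIA+THz 3 were almost level at 0.702 and 0.711. The difference passed the criterion without CIA+THz 3 (1.19) and with the FPKM as deposited (1.10). Il23r differed by -0.92 (SE 0.67, 95% CI -2.51 to 0.67, adjusted p = 0.588 in limma), and the groups overlapped. That difference was -0.42 without CIA 1 and -0.31 without CIA+THz 2. Both intervals hold 0 and also hold changes larger than the criterion.

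CIA+THz against Ctrl shares its Ctrl libraries with CIA against Ctrl, and CIA+THz against CIA shares the CIA libraries with it, so that the comparisons are not independent. Side by side, the log2 differences of Il12rb2 were -1.47 (CIA against Ctrl), 0.84 (CIA+THz against CIA) and -0.63 (95% CI -1.58 to 0.32, CIA+THz against Ctrl). Those of Il23r were 3.01, -0.92 and 2.09 (95% CI -0.14 to 4.32). In CIA+THz against Ctrl, 0 of the 6 members passed the criterion, which 7.88% of all genes did (4.64% higher and 3.24% lower), and 0 were without overlap, against 24% of all genes (11.9% higher and 12% lower). Il23r passed it there without Ctrl 1 (3.08), without CIA+THz 2 (2.70) and with the FPKM as deposited (2.31), and Il12a without Ctrl 1 (1.10).

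**Figure D2:**
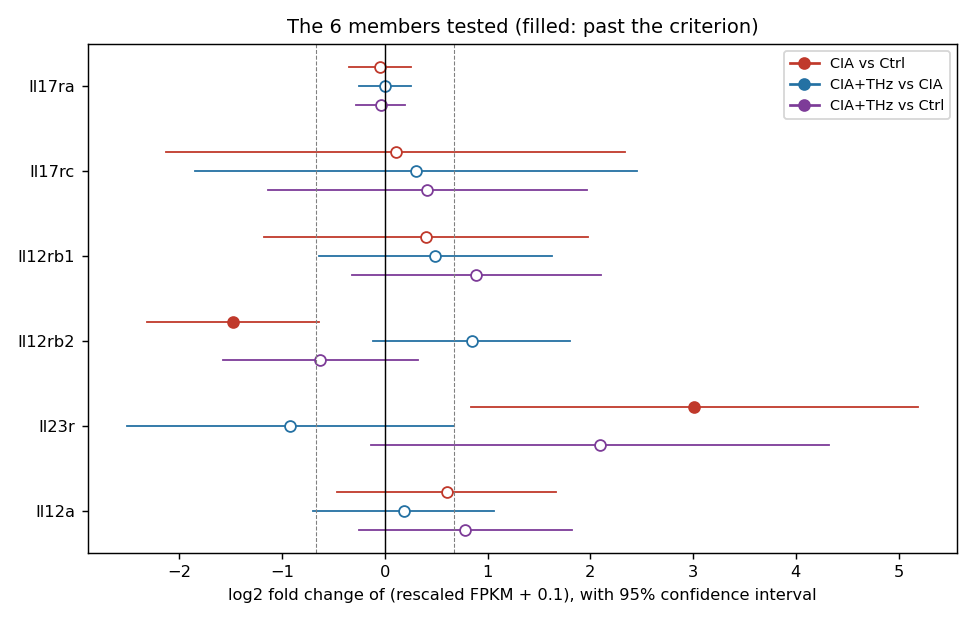
Log2 fold change of rescaled FPKM + 0.1 on the horizontal axis for the 6 members tested, with points for the estimates, lines for 95% confidence intervals, colours for the 3 comparisons, filled points where the criterion was passed and dashed lines at its limits of 0.67. The CIA against Ctrl estimates of Il12rb2 (-1.47) and Il23r (3.01) are the filled points, and the intervals of Il17ra are the narrowest.

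Genes of the cells known to carry these receptors, and of monocytes, differed between the same groups. Genes of other lists shifted as well. In CIA against Ctrl, 12 of 14 ubiquitous genes were higher and 2 lower, with 0 past the criterion. In CIA+THz against CIA, 13 of them were lower and 1 higher, with 1 past it. There all 12 neutrophil genes (5 past it) and all 9 platelet genes (0) were lower, and all 9 B cell genes (0) higher. In CIA against Ctrl the neutrophil, platelet and B cell genes were mixed in direction. Of 8 NK cell genes, Klra8 was listed at 0 in every library and 7 were tested. All 7 were lower in CIA than in Ctrl, 6 of them past the criterion (4.25% of all genes passed it in that direction), and CIA+THz exceeded CIA for all 7, with 3 past it (2.94% of all genes). Their summed level was 154 to 197 for Ctrl, 57.1 to 121 for CIA and 104 to 156 for CIA+THz, so that CIA lay under Ctrl in each library as it did for Il12rb2. Most of this sum was Gzma (means of 77.2, 39.2 and 55.8 in Ctrl, CIA and CIA+THz) and Prf1 (52.0, 26.7 and 44.6). Within CIA, the NK sum was highest in CIA 1 and lowest in CIA 2, while the Il12rb2 values lay close together, between 0.562 and 0.702. Ncr1, an activating receptor of NK cells, averaged 14.5 ± 4.27 for Ctrl, 7.38 ± 3.18 for CIA and 10.7 ± 2.03 for CIA+THz (SD, n = 3 each). The part of NK cell RNA in the Il12rb2 result was not tested.

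The 13 T cell genes summed to 445 to 516 for Ctrl, 375 to 420 for CIA and 463 to 617 for CIA+THz. All 13 were lower in CIA than in Ctrl, but 1 passed the criterion (4.25% of all genes in that direction), Cd28, a costimulatory receptor, at -1.19 (SE 0.17). CIA+THz exceeded CIA for all 13, with 2 past the criterion (2.94% of all genes), Cd5 at 0.79 (SE 0.21) and Cd28 at 0.68 (SE 0.15). Il23r went the other way from these genes in CIA. Of the gamma-delta T cell genes only Sox13 and Blk were measured here, and their sum was 7.86 to 11.1 for Ctrl, 11.7 to 18.3 for CIA and 10.9 to 13.6 for CIA+THz. The 12 monocyte genes, none of them at 0 in all libraries, summed to 3208 to 3535 for Ctrl, 5492 to 6129 for CIA and 3754 to 4028 for CIA+THz. Lyz2 made up most of this sum, with means of 2717, 4715 and 2963 in Ctrl, CIA and CIA+THz. The CIA mean exceeded the Ctrl mean for all 12 monocyte genes, and 8 passed the criterion (4.79% of all genes in that direction). In CIA+THz against CIA, 10 monocyte genes were lower and 2 higher, and 1 passed the criterion as lower (1.6% of all genes). In CIA+THz against Ctrl, 10 remained higher and 2 lower, and 6 passed the criterion as higher (4.64% of all genes). The part of these cells' RNA in the Il23r result was not tested.

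**Figure D3:**
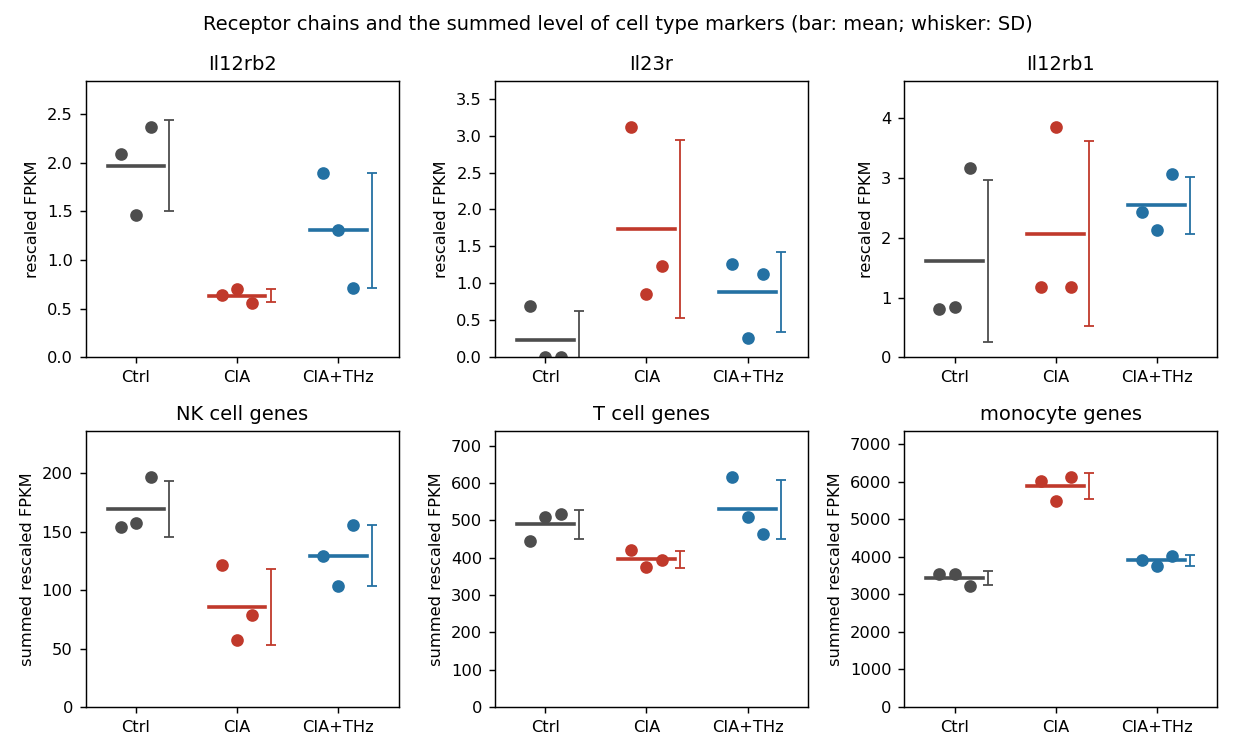
Rescaled FPKM of Il12rb2, Il23r and Il12rb1 in the upper panels and the summed rescaled FPKM of 8 NK cell, 13 T cell and 12 monocyte genes in the lower panels, on linear axes from 0, with 1 point per library, a bar at the group mean and a whisker of 1 SD. The NK cell sum, like Il12rb2, is lower in every CIA library (57.1 to 121) than in every Ctrl library (154 to 197), and the monocyte sum is higher in every CIA library. Most of the NK cell sum is Gzma and Prf1, and most of the monocyte sum is Lyz2.

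Of the other IL-17 family ligands and receptor chains, 2 of 8 could be tested. Il17b, Il25 and Il17rb were listed at 0 in every library. Il17re, a receptor chain for IL-17C, averaged 0.0614 ± 0.106 for Ctrl, 0.405 ± 0.351 for CIA and 0.474 ± 0.253 for CIA+THz, and passed the criterion in CIA+THz against Ctrl at 1.93 (SE 0.65, adjusted p = 0.194 in limma), with 2 of its 3 Ctrl libraries at 0. Of the 4 other chains of the IL-12 family and its receptors (Il27, Ebi3, Il27ra and Il6st), 0 passed the criterion in any comparison.

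Among the signalling genes below the IL-12 and IL-23 receptors, Socs1, a feedback inhibitor of the Janus kinases, was higher by 1.03 (SE 0.35) in CIA and by 0.90 (SE 0.36) in CIA+THz, each against Ctrl. The adjusted p of Socs1 in limma was 0.213 in CIA against Ctrl and was not under 0.05 in CIA+THz against Ctrl. Stat4, which Il12rb2 acts through, was at 6.55 ± 1.02, 5.02 ± 0.659 and 4.97 ± 1.23 in Ctrl, CIA and CIA+THz and did not pass.

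Of 16 genes below the IL-17 receptor, 0 passed in CIA against Ctrl (9.04% of all genes did), 1 passed when CIA+THz was compared with CIA (4.54%) and 1 when it was compared with Ctrl (7.88%). Traf3ip2, the adaptor that binds the receptor directly, was at 3.17 ± 0.720, 2.67 ± 0.813 and 4.46 ± 0.990 in Ctrl, CIA and CIA+THz and rose by 0.73 (SE 0.30, adjusted p = 0.363 in limma) in CIA+THz against CIA. With the FPKM as deposited, which the scaling lowered by 0.28 (log2) in CIA+THz relative to CIA, the direction is the same. In CIA+THz against Ctrl, Cebpb alone passed, at -3.18 (SE 1.25, adjusted p = 0.243 in limma), and it was uneven within groups: 102, 4.56 and 106 in CIA 1 to 3 and 61.6, 2.08 and 1.52 in CIA+THz 1 to 3, against 46.9 to 59.1 in Ctrl. Cebpd was at 204 ± 22.2, 230 ± 4.72 and 155 ± 9.18 in Ctrl, CIA and CIA+THz. Its adjusted p in limma was 0.0448 over the 3 groups, but it did not pass the criterion in any pair.

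Of 11 genes of the Th1 and NK response to IL-12, Gzmb, a granule protease of killer cells, passed in CIA against Ctrl, at -0.70 (SE 0.22, adjusted p = 0.191 in limma), and 0 passed in the other comparisons. This count of 1 is at the background of 9.04% of all genes. Of 18 genes of Th17 induction and identity, 15 were tested and 2 passed in CIA against Ctrl, against 9.04% of all genes, a share close to that background. Ahr, a ligand-activated transcription factor, averaged 5.37 ± 1.27 for Ctrl, 13.4 ± 2.17 for CIA and 11.9 ± 1.72 for CIA+THz, and was higher by 1.32 (SE 0.23) in CIA and by 1.14 (SE 0.21) in CIA+THz, each against Ctrl. Its adjusted p in limma was 0.0174 over the 3 groups but 0.0669 in CIA against Ctrl, and was not under 0.05 in CIA+THz against Ctrl. Tgfb1, a cytokine gene of the same list, was at 27.0 ± 1.33, 41.5 ± 2.78 and 34.1 ± 3.54 in Ctrl, CIA and CIA+THz. The adjusted p of Tgfb1 in limma was 0.0466 over the 3 groups, but Tgfb1 did not pass the criterion in any pair. Runx1, a transcription factor of blood cells, differed by -0.74 (SE 0.29, adjusted p = 0.263 in limma) in CIA against Ctrl. Batf, a partner of AP-1 factors, differed by -0.68 (SE 0.26, adjusted p = 0.346 in limma) in CIA+THz against CIA.

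**Figure D4:**
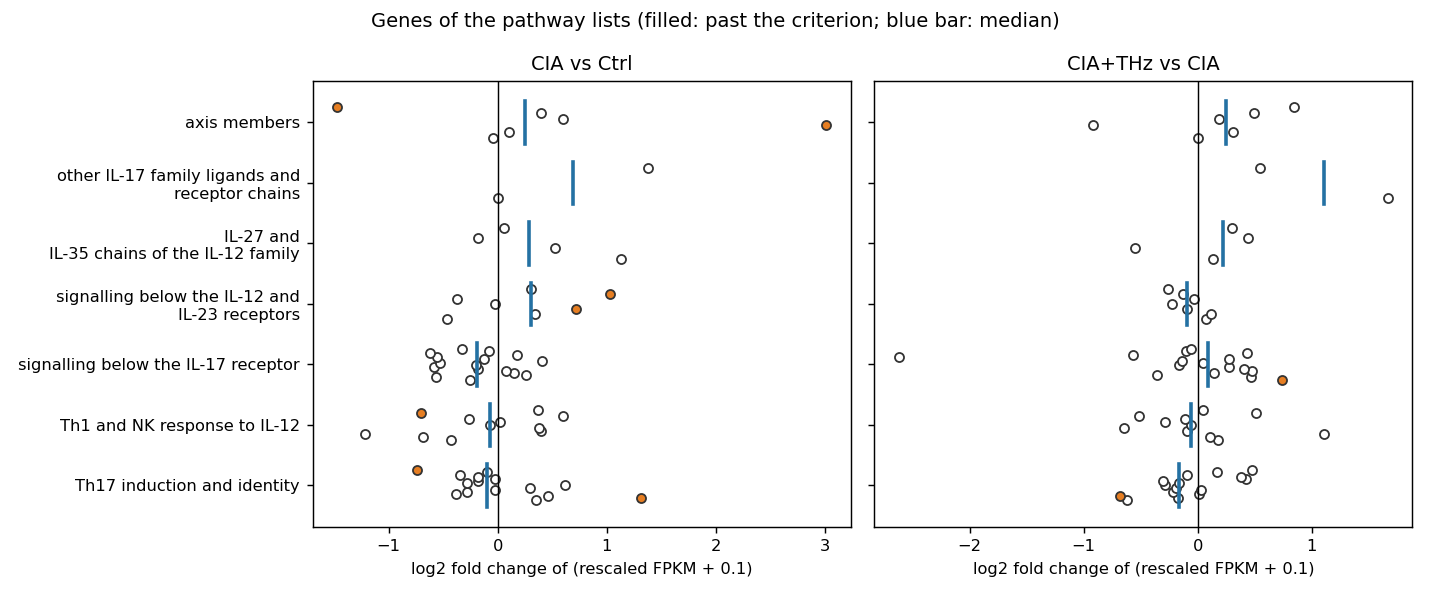
Log2 fold changes of rescaled FPKM + 0.1 on the horizontal axis, with 1 point per gene tested, rows for the lists of the axis and its pathways, filled points for genes past the criterion and a blue bar at each list's median, for CIA against Ctrl and for CIA+THz against CIA. Il23r at 3.01 and Il12rb2 at -1.47 are the outermost points of the first panel, and 2 points are filled in the second panel, Traf3ip2 and Batf.

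The genes whose pattern was most like that of Il12rb2 and Il23r were taken among the genes whose rescaled FPKM averaged 1 or more, by Pearson's r of log2 values over the 9 libraries, which share the group differences and the depths. For Il12rb2 they were Srsf5 (r = 0.973), Zfp280b (0.921) and Vps13a (0.918), and 7 of 9747 genes ranked had an r over 0.9. The count was also 7 for Il12rb1, whose unadjusted p over the 3 groups was 0.323 in limma's F-test. Srsf5 varied little in size, between 49.3 in CIA 3 and 59.7 in Ctrl 3. Zfp280b was at 4.04, 3.32 and 4.58 in Ctrl 1 to 3, at 1.83, 1.57 and 1.97 in CIA 1 to 3 and at 2.71, 2.56 and 1.90 in CIA+THz 1 to 3. For Il23r they were Nrp1 (r = 0.970), Tppp3 (0.965) and Ifi44 (0.956), and 16 genes had an r over 0.9. Nrp1, a co-receptor for semaphorins and vascular growth factors, was at 2.69, 1.60 and 1.68 in Ctrl 1 to 3, at 4.78, 2.83 and 2.89 in CIA 1 to 3 and at 3.50, 2.04 and 3.25 in CIA+THz 1 to 3, with Ctrl 1 and CIA 1 at the top of their groups as for Il23r.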

How the data were processed

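Blood RNA of 9 libraries (3 each of Ctrl, CIA and CIA+THz, by the labels) was sequenced, and the authors deposited FPKM values for 20926 genes. The submitters' processing notes name bcl2fastq 2.0, HISAT2, StringTie, DESeq2 and mm10. The annotation, strand setting and filters are not given in the sources used here, so reads shared with overlapping genes could not be judged. Each library's FPKM was rescaled by its median ratio to the geometric mean, using the 10312 genes that were never 0. The 12366 genes with a mean of at least 0.1 were tested on log2(rescaled FPKM + 0.1), which understates changes of low genes, with limma 3.58.1 (eBayes with a trend) in R 4.3.3, over the 3 groups and on the 6 libraries of each pair, with Benjamini-Hochberg adjustment. The criterion followed the study: unadjusted p under 0.05 and, for pairs, an absolute log2 fold change above 0.67.

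Relative depth came from the steps between FPKM values under 0.5, and all 36 pairs of libraries fitted within 0.03 on the log2 scale. The scripts were tested on simulated data. Members, lists and tests were chosen with earlier results of these data known. Named were all members, list genes past the criterion in a comparison or at 0 in every library, and the 3 genes most like each member with p under 0.05 over the groups. Of the NK cell, T cell and monocyte genes, Ncr1, Gzma, Prf1, Cd5, Cd28 and Lyz2 were named after their values were seen. So were Stat4, Tgfb1, Cebpd and the genes given as other observations. A gene of the signalling list is not reported here. All 9 symbols were matched to GENCODE M21 on GRCm38, and 6 members had a RefSeq promoter window (not Il17ra, Il23a and Il12rb1). Python 3.11.15, pandas 2.3.3 and matplotlib 3.10.9 were used. The labels do not say that each library is a separate mouse, so p-values measure the spread between these libraries. The alternatives were FPKM as deposited, a pseudocount of 1, no filter or a mean of at least 1, no trend, all 3 groups in 1 fit, a block for replicate numbers, omission of each library, the adjusted p, and analysis of variance on linear values.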

Additional observations from a re-analysis of the deposited data

How the results depend on the processing

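Il12rb2 in CIA against Ctrl kept its direction and the criterion under every alternative except the adjusted p, between -1.67 and -0.85. With the adjusted p, the genes past the threshold fell from 2629 to 313 over the 3 groups, from 1118 to 19 in CIA against Ctrl, from 561 to 0 in CIA+THz against CIA and from 975 to 13 in CIA+THz against Ctrl, and the members from 2 to 0 over the groups and from 2 to 0 in CIA against Ctrl. Without rescaling, the median of all genes in CIA+THz lay 0.29 above CIA and 0.33 above Ctrl on the log2 scale, and the calls were 1199 (1133 higher, 66 lower, against 363 and 198) and 1720 (1600 higher, 120 lower, against 574 and 401), with 1 member each, and Il17ra turned to 0.27 in CIA+THz against Ctrl. A pseudocount of 1 left 283 genes in CIA+THz against CIA and turned Il17rc there to -0.032. A mean of at least 1 left 1 member over the groups and 1 in CIA against Ctrl, since Il23r was no longer tested, and analysis of variance on linear values left 1 over the groups. All 3 groups in 1 fit called 1 member, Il23r, in CIA+THz against Ctrl. The replicate numbers did not pair libraries: same-numbered deviations correlated between -0.05 and 0.03, and 2 of 9 libraries went best with their own number. With the replicate block, 1 member, Il23r, passed in CIA+THz against Ctrl (2.09), and 2399 genes over the groups and 1073, 506 and 967 in the pairs. Leaving out each library gave 2059 to 2789 genes and 1 to 2 members over the groups, 966 to 1261 genes and 1 to 2 members in CIA against Ctrl, 484 to 745 and 0 to 1 in CIA+THz against CIA, and 724 to 1487 and 0 to 2 in CIA+THz against Ctrl, the last with 1487 genes without Ctrl 3. In CIA against Ctrl, CIA+THz against CIA and CIA+THz against Ctrl, in that order, it moved Il17ra over -0.11 to 0.051, -0.091 to 0.056 and -0.11 to 0.025, and Il17rc over -0.87 to 0.60, -0.18 to 1.29 and -0.024 to 0.71. It moved Il12rb1 over -0.14 to 1.01 in CIA against Ctrl and Il12a over -0.065 to 0.41 in CIA+THz against CIA. Where no construction of the alternative shows it, the cause was not tested. Depth limits Il17rc, Il12b, Il23a and Il17a, which lay at or near 0.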

Other observations

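The further cytokine genes Il21, Il17f, Il22 and Ifng of the same pathways were at or near 0 in most libraries, and all but Ifng were untested. Il21, a cytokine of follicular helper and Th17 cells, was above 0 in the 3 CIA+THz libraries, at 0.179, 0.258 and 0.279, and listed at 0 in all Ctrl and CIA libraries. The CIA+THz libraries were also the deepest, at 1.35 to 1.87 times Ctrl 1. After allowing for scaling and depth the Il21 values of these libraries were level, so that they show no graded difference. The number of reads behind them is not known, and the share of all genes with this pattern was not computed. Il17f, which encodes the relative of IL-17A that binds the same receptor, was above 0 in CIA 3 (0.168) and CIA+THz 3 (0.293), and Il22, a further Th17 cytokine, in CIA 2 (0.168). Ifng, the main product of IL-12 signalling in NK and Th1 cells, was at 1.15 in Ctrl 1, 0.182 in CIA+THz 1 and 0.255 in CIA+THz 2, and listed at 0 in the other 6 libraries. The unadjusted p of Ifng over the 3 groups was 0.453 in limma's F-test.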
